A study of Mus musculus with 29 samples.

Results

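The hypothalamus was examined 72 h after mice had received 4T-1 cells under the skin, a mouse mammary carcinoma line that grows in BALB/c mice. The arrays were chosen by their labelled time and by the array print, because the probe names of a further print appeared to match its spots poorly. Brightness by probe name correlated at -0.03 to 0.25 between that print and the 5 arrays used, and at 0.28 to 0.59 among those 5. The arrays used are 5 of the 29 arrays of the series and 5 of the 10 labelled 72 h. They stand for 3 of the 4 biological replicates of this time. On each array, RNA of tumour-injected mice and RNA of PBS-injected mice carried different dyes and were hybridised together on an in-house printed oligonucleotide array.

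The tumour mice were female BALB/c mice of 8 weeks that received 100000 4T-1 cells in 100 µl PBS, and the PBS mice were of the same strain, sex and age and received 100 µl PBS. Both were decapitated 72 h after the injection. Replicate 1 gave 1 of the arrays used, made from poly(A) RNA with the tumour RNA in Cy5. Its other arrays of 72 h were on the print that was left out. Replicates 3 and 4 gave 2 arrays each, made from total RNA, with the tumour RNA in Cy5 on one array and in Cy3 on the other. All values below are log2 ratios of tumour over PBS within an array, averaged first over the arrays of a replicate. The labels do not say whether a replicate is 1 animal or a pool, and the p-values below rest on the variation among the 9 replicates of 18, 72 and 192 h fitted together, which may be technical. The direction of the ratios is likely rather than settled: it follows the dye that the labels give for each channel, while the scanner files letter their channels without a dye.

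The hypothalamus sets food intake, energy use, body temperature and the release of pituitary hormones, and it does so through neurons that are told apart by the peptides they make. It also receives signals from the immune system, through cytokines in the blood and through nerves, which in sickness raise glucocorticoid release and lower appetite. A tumour cell graft at an early time is a setting in which such signals can be sought before a large tumour exists. In a block of tissue, fewer cells of a type and less RNA per cell cannot be told apart.

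The share of spots with a usable ratio ran from 45.1% to 82.6% over the 5 arrays. Of 8726 named genes, 3593 had a ratio in all 3 replicates and were tested. Both dye orientations of replicate 3 measured 2336 of them, both of replicate 4 measured 2028, and 1496 genes had a ratio on all 5 arrays. Signal is given below as the background-corrected intensity of the dimmer channel, divided by the local background. A low value is thus still a signal above the background. Of the 10 neuronal markers on the arrays 7 were tested, with a median signal of 3.03 times the local background. Of the peptide genes that mark hypothalamic neurons, Pmch reached 6.15 times the local background, Oxt 2.46 times and Avp 1.75 times. Agrp, Pomc, Crh and Npy are not among the genes named on the arrays.

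Correlations between the 5 arrays were low or negative for most pairs. The dye-exchanged arrays of replicate 3 hold the same pair of RNAs, yet their tumour over PBS ratios correlated at -0.626 across 4225 genes as measured and at -0.177 after the dye effect of each probe had been subtracted. An exchanged dye label on one of these arrays and a large dye effect cannot be told apart here, and with an exchanged label the replicate 3 values below would differ. Those of replicate 4 correlated at 0.111 as measured and 0.283 after the subtraction, across 3578 genes. Arrays of different replicates with the tumour in Cy3 correlated at 0.139 as measured and at -0.318 after it. Between replicate means the correlation was 0.176 for replicates 1 and 3, 0.029 for 1 and 4 and 0.039 for 3 and 4. These correlations are across the genes of shared arrays, whose genes are not independent.

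The labelling behind a gene's ratios moved with its result. Among the 571 tested genes whose tumour RNA was in Cy5 on every array with a ratio, 75 lay below 0 and 31 above 0 with an unadjusted p under 0.05 (limma), 18.6% in all, and their median log2 ratio was -0.11. Among the 1496 genes measured on all 5 arrays, 4 lay below 0 and 22 above 0 at that level, 1.74% in all, with a median of 0.03. The first set was also dimmer, with a median signal of 0.726 times the local background against 1.15 in the second. The part of the dye in single ratios was not tested, so the leading genes below are mostly given with the arrays that measured them. Most genes of the families are given by replicate values alone, without the dye orientations behind them.

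**Figure D1:**
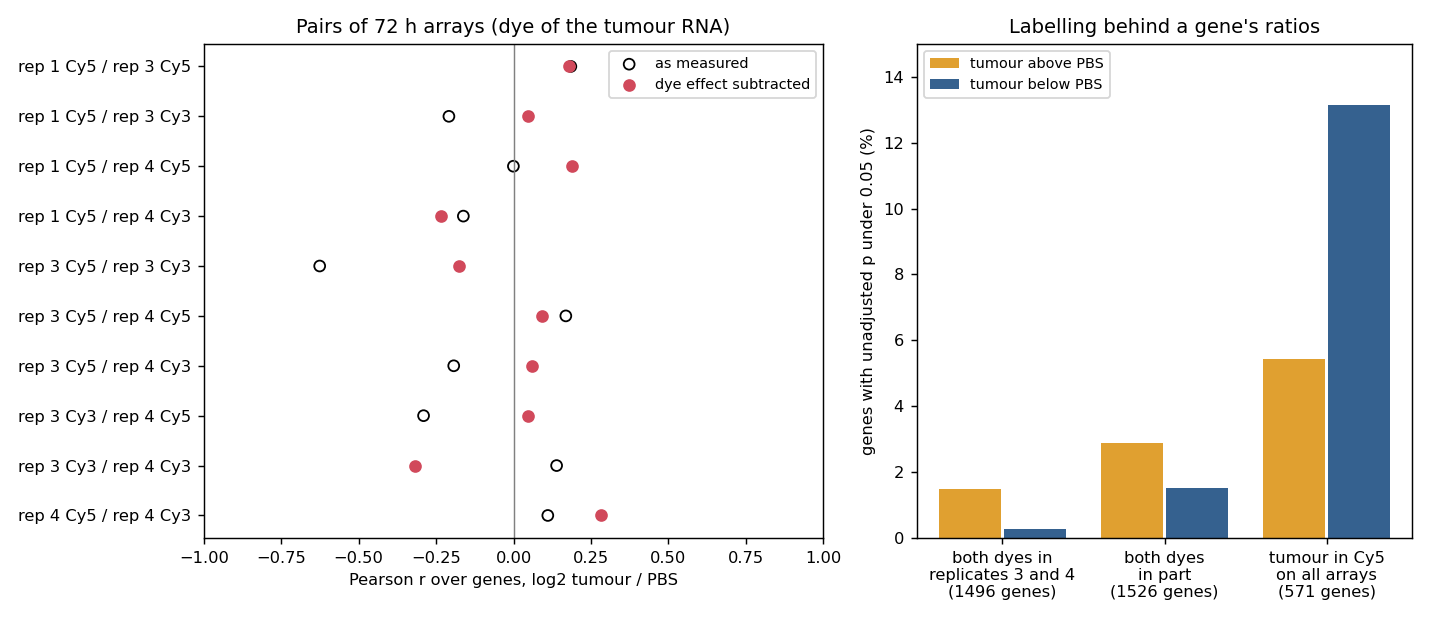
Left, Pearson correlation over genes of the log2 tumour over PBS ratios of each pair of 72 h arrays, as measured (open) and after subtraction of the dye effect (red); the dye-exchanged arrays of replicate 3 lie at -0.626 and -0.177. Right, percentage of tested genes with an unadjusted p under 0.05 above 0 (orange) and below 0 (blue), by the dye orientations behind their ratios; genes with the tumour in Cy5 on all arrays had 31 above and 75 below of 571.

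No gene passed the test at 72 h. The comparison asked which hypothalamic genes differed between tumour and PBS mice, and limma called 0 of 3593 genes at an adjusted p of 0.05 (0%), with a smallest adjusted p of 0.460. An unadjusted p under 0.05 was found for 97 genes above 0 (2.7%) and 102 below 0 (2.84%). All 3 replicates lay above 0 for 538 genes (15%) and below 0 for 429 genes (11.9%). The median over all tested genes was 0.02 and the median standard error of a gene's mean was 0.172.

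Dbf4, Tm4sf1 and Cd37 were among the 12 leading genes above 0, chosen by smallest p. Dbf4, the regulatory subunit of the Cdc7 kinase that fires replication origins, had log2 ratios of 2.17, 1.00 and 1.33 in replicates 1, 3 and 4. All 3 were above 0 by more than their spread, and the mean of 1.50 ± 0.60 (SD, n = 3) is a 2.83-fold ratio with a 95% interval of 0.88 to 2.12 on the log2 scale (limma, adjusted p = 0.460). As measured, however, Dbf4 lay at -0.05, -1.25 and -0.89 on the 3 arrays with the tumour in Cy5 and at 3.26 on the 1 array with the tumour in Cy3, and a dye effect of -2.22 was subtracted. Tm4sf1, a membrane protein of the transmembrane 4 family found on endothelium and carcinoma cells, had 2.81, 0.15 and 2.44. Replicate 3 stood far below the other two, so that the mean of 1.80 ± 1.44 has a spread close to its size (limma, adjusted p = 0.604). As measured, Tm4sf1 lay at 0.27 and -0.10 in replicates 1 and 4, so most of their 2.81 and 2.44 is the dye effect of -2.54 that was subtracted. That effect rests on 1 replicate labelled both ways, replicate 3, whose arrays read -2.39 with the tumour in Cy5 and 2.69 with it in Cy3.

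Cd37, a tetraspanin of B cells and other leukocytes, had log2 ratios of 1.19, 0.57 and 1.02 in replicates 1, 3 and 4. All 3 replicate means lay above 0, and their mean was 0.93 ± 0.32 (SD, n = 3; limma, adjusted p = 0.460), a 1.90-fold ratio. Its signal was 1.37 times the local background. As measured Cd37 lay at 0.39 in replicate 1 and 0.22 in replicate 4, both with the tumour in Cy5. In replicate 3 it lay at -0.90 with the tumour in Cy5 and 2.03 with it in Cy3. A dye effect of -0.80, from 2 replicates labelled both ways, was subtracted. After the subtraction the arrays of replicate 3 lay at -0.09 and 1.23. Of the 5 markers of blood cells on the arrays, the other two with 3 replicates were Cd3e of T cells at -0.04 and S100a8 of neutrophils at -0.15. The part of blood cells in the Cd37 ratio was not tested.

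Fxyd1, which encodes phospholemman, a regulator of the sodium pump, was the gene of this group with the most even values. Its replicates lay at 0.38, 0.54 and 0.62, and the mean was 0.51 ± 0.12 (SD, n = 3), a 1.42-fold ratio (limma, adjusted p = 0.732). All 5 arrays measured Fxyd1 and all 5 were above 0 as measured, at 0.08, 0.31 and 0.38 with the tumour in Cy5 and at 0.77 and 0.85 with the tumour in Cy3. Rpl7l1, a ribosomal protein L7-like gene, had 0.42, 0.47 and 0.70, and its dye effect of -0.02 was close to 0. Its 4 arrays ran from 0.34 to 0.72 as measured, both orientations included. Polr3f, a subunit of RNA polymerase III, had 0.75, 0.38 and 0.56 and was above 0 on its 4 arrays as measured.

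The other leading genes above 0 were less evenly measured. Adat2, the catalytic subunit of a transfer RNA adenosine deaminase, had 1.18, 0.10 and 1.33, and 1 of its 5 arrays, that of replicate 4 with the tumour in Cy3, read 2.83 while the others lay between -0.17 and 0.58. Dnhd1, a dynein heavy chain domain gene, had 0.55, 1.96 and 0.37, with replicate 3 far above the others. Luc7l, a splicing factor of the U1 particle, had 0.66, 0.34 and 1.12, and Eps15l1, an adaptor of clathrin endocytosis, 0.49, 0.27 and 1.09. Sgms2, a sphingomyelin synthase, had 0.34, 0.56 and 0.93, and Ccdc3 had 0.02, 0.70 and 1.16. For Luc7l, Eps15l1, Sgms2 and Ccdc3 the tumour RNA was in Cy5 on all 3 arrays with a ratio. The probe of Luc7l had a background-corrected signal of 0.450 times the local background.

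Below 0, the genes of smallest p included C5ar1, Csf3, Tirap and Dapp1 of immunity, and 11 of the 12 rested on arrays with the tumour in Cy5 alone. For each of these 11 the dye effect subtracted came from 1 replicate labelled both ways, at another time. An error in it shifts all 3 replicates alike, so it does not show in their SD. The p-values take no account of it. C5ar1, the receptor of the complement fragment C5a, had log2 ratios of -1.03, -0.59 and -0.79 in replicates 1, 3 and 4. The 3 values were even, with a mean of -0.81 ± 0.22 (SD, n = 3; limma, adjusted p = 0.472). As measured they were -0.48, -0.03 and -0.24, and a dye effect of 0.56 made up the rest. Csf3, the cytokine that drives granulocyte production, had -0.97, -0.79 and -0.76, of which -0.31, -0.13 and -0.10 were measured and 0.66 was the dye effect subtracted. Tirap, an adaptor of Toll-like receptors 2 and 4, had -0.51, -0.39 and -0.82, with a dye effect of 0.30. Dapp1, an adaptor of B cell receptor signalling, had -0.56, -0.66 and -0.87, with a dye effect of 0.60. As measured Dapp1 lay at 0.04, -0.06 and -0.28.

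Gnat1, the transducin alpha subunit of rod photoreceptors, had -0.87, -0.68 and -0.80, and 0.68 of each value was the dye effect. As measured Gnat1 lay at -0.19, 0.00 and -0.12. Epha1, a receptor of ephrins in axon guidance, had -0.67, -0.67 and -1.01, and -0.12, -0.12 and -0.46 as measured. Lrrc46, Ankrd42 and Cand2 had mean ratios of -0.68, -0.93 and -0.72. Each had an array above 0 as measured, as had Dapp1 and Myh8. Evx1, a homeobox factor of spinal interneurons, averaged -0.57 ± 0.21, with the smallest dye effect of the 12, 0.23. It was below 0 on all 3 arrays as measured, at -0.58, -0.26 and -0.19. Bbs9, of the ciliary BBSome complex, averaged -0.61 ± 0.32. Myh8, the perinatal myosin heavy chain, averaged -0.56 ± 0.18 and was the only one of the 12 with a tumour array in Cy3. Of the 12, 11 had a signal below the median of all tested genes, against 5 of the 12 above 0.

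Prokr1, a receptor of the prokineticins, Cfap298 and Mov10l1 had a smaller p than any of these 12, and were left out of them because they did not have the same sign of the mean in all 4 other settings. The sign of Prokr1 and Mov10l1 turned without the dye correction, while Cfap298 kept its sign in the settings that gave it a value and had none in the authors' table. They are named here after their values were seen. Prokr1 had -0.67, -1.01 and -0.77 (limma, adjusted p = 0.460), but 0.21, -0.12 and 0.11 as measured, with the tumour in Cy5 on all 3 arrays. Mov10l1 likewise had -0.92, -0.69 and -0.88, but 0.02, 0.25 and 0.05 as measured. Cfap298, a protein of motile cilia, had -0.67, -0.99 and -0.94, and was below 0 on its 4 arrays as measured, at -0.05, -0.37 and -0.32 with the tumour in Cy5 and at -1.56 with it in Cy3.

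**Figure D2:**
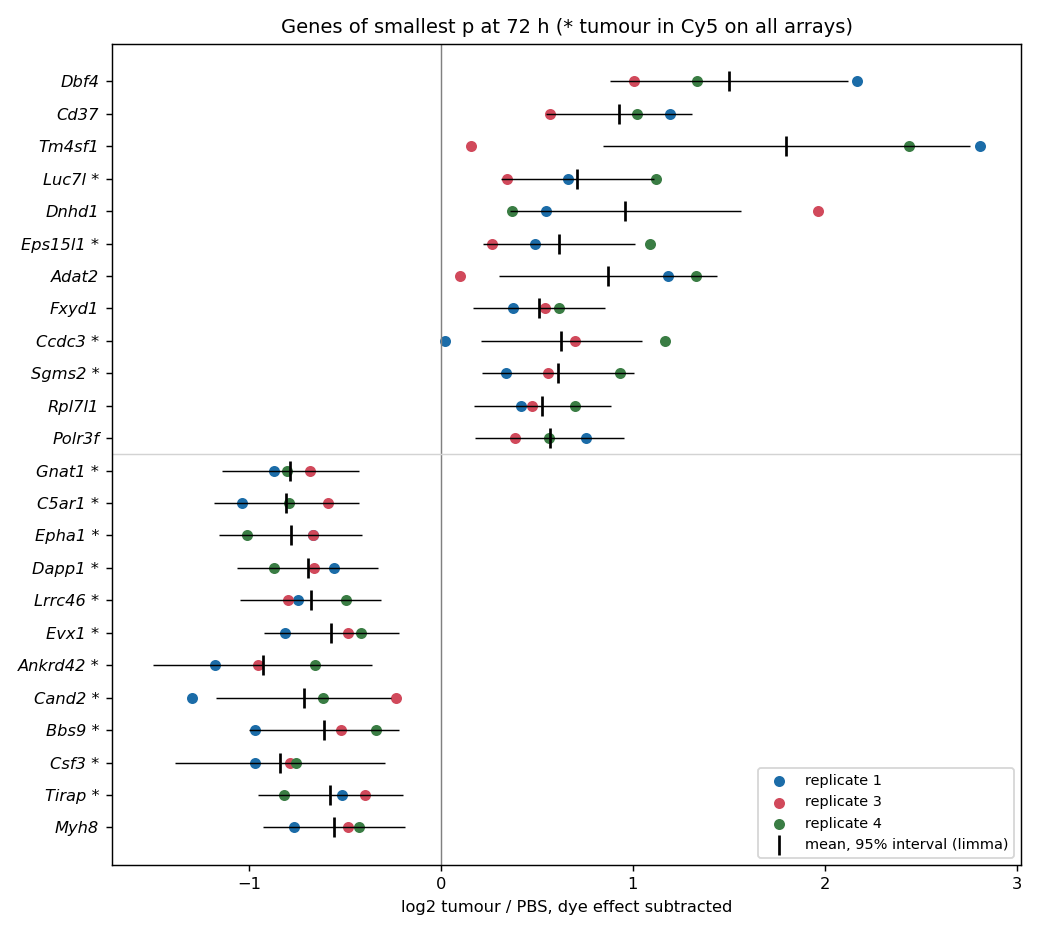
Log2 tumour over PBS ratio at 72 h, dye effect subtracted, of the 12 genes of smallest p above 0 and the 12 below 0; points are replicates, bars the mean with its 95% interval from limma. The interval does not count the error of the dye effect. An asterisk marks a gene with the tumour in Cy5 on all its arrays, 4 of the 12 above 0 and 11 of the 12 below.

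Genes measured on all 5 arrays give a view in which both orientations count. As measured, with no dye effect subtracted, 51 of the 1496 genes were above 0 on all 5 arrays (3.41%) and 11 below 0 on all 5 (0.735%). With the dye effect subtracted 62 were above 0 (4.14%) and 18 below (1.2%), and 36 and 8 were so in both ways. All 3 replicate means were above 0 for 220 of these genes (14.7%) and below 0 for 94 (6.28%). The genes named next were ranked by the array nearest 0, so their sign on the 5 arrays was fixed by the choice.

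Among the genes above 0 on all 5 arrays, Prps1 had the largest mean. Prps1, which makes the phosphoribosyl pyrophosphate used for nucleotide synthesis, read 0.55, 1.25 and 0.15 with the tumour in Cy5 (replicates 1, 3 and 4) and 0.80 and 0.35 with it in Cy3 (replicates 3 and 4). Replicate 3 was highest in both orientations, and the mean after dye correction was 0.59 ± 0.40 (SD, n = 3; limma, adjusted p = 0.811). Mgrn1, the mahogunin ubiquitin ligase, whose loss in mice alters melanocortin signalling in the skin and leads to brain degeneration, read 0.56, 0.18, 0.19, 0.13 and 0.49. Vdac1, the main channel of the outer mitochondrial membrane, read 0.68, 0.17, 0.12, 0.18 and 0.28. In both, replicate 1 was highest.

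The remaining genes of this kind had small and even ratios. Septin4, a septin of neurons and glia, read 0.24, 0.24, 0.14, 0.23 and 0.33, and its dye-corrected mean was 0.24 ± 0.04, a 1.18-fold ratio (limma, adjusted p = 0.954). Grasp, a scaffold of metabotropic glutamate receptors, read between 0.16 and 0.32, with a mean of 0.24 ± 0.05. Pla2g2a, a secreted phospholipase A2 of inflammation, read between 0.17 and 0.42. Ppp1r12c, a targeting subunit of myosin phosphatase, averaged 0.28 ± 0.08, and Hmgn1, a nucleosome-binding protein, 0.21 ± 0.13. Against these stood 8 genes below 0. Cyhr1 averaged -0.49 ± 0.48, with -0.99 in replicate 1 and -0.08 to -0.35 on the other arrays. Dnm1, the dynamin of synaptic vesicle recovery, averaged -0.18 ± 0.09, Terf2 of the telomere -0.15 ± 0.11 and the teneurin Tenm1 -0.17 ± 0.12. Htatsf1, Klhdc8b, Cdk2ap1 and Cnnm2 lay between -0.18 and -0.28. The adjusted p of these 16 genes was 0.770 or more.

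**Figure D3:**
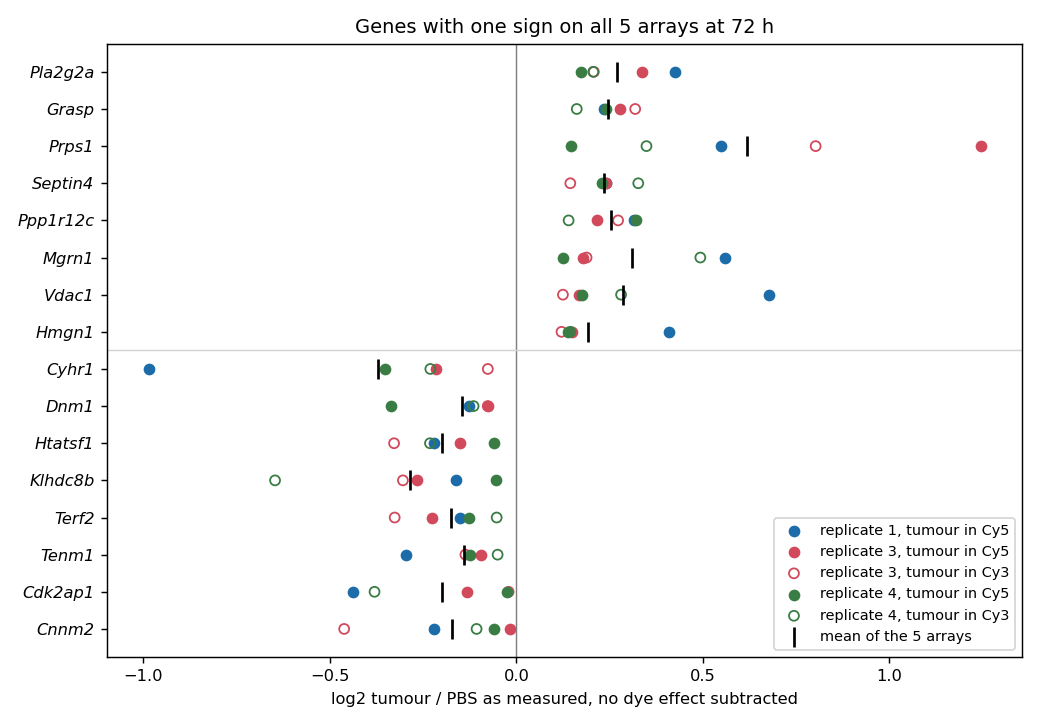
Log2 tumour over PBS ratio on each of the 5 arrays as measured, for the 8 genes above 0 and the 8 below 0 on all 5 whose array nearest 0 lay farthest from it; filled points have the tumour in Cy5, open points in Cy3, bars are the mean. Prps1 reached 1.25 in replicate 3, and most other arrays lay within 0.5 of 0.

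With both orientations measured, 22 of the 1496 genes had an unadjusted p under 0.05 above 0 (1.47%) and 4 below 0 (0.267%), none past the adjusted threshold in limma. Of these 26 genes, 9 had one sign on all 5 arrays as measured. Besides Fxyd1, Mgrn1, Prps1 and Cyhr1 these included genes named here after their values were seen. Apba2, a partner of the amyloid precursor protein at the synapse, had 0.49, 0.33 and 0.49 in replicates 1, 3 and 4, and 0.04 to 0.95 over its arrays. Parp6, of the family that transfers ADP-ribose, had 0.56, 0.42 and 0.35. Micos13, of the complex that shapes the inner mitochondrial membrane, had 0.74, 0.38 and 0.29, and Mpv17l had 0.86, 0.23 and 0.44. In each of these 4 the 3 replicates lay above 0.

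Genes of feeding control and of neurosecretion came next, since they define the tissue. Of a panel of 31 hypothalamic genes, 20 were on the arrays, 7 had 3 replicates at 72 h and 10 had 2. Oxt, the oxytocin precursor, had log2 ratios of 0.42, 0.37 and -0.26 in replicates 1, 3 and 4, and the mean of 0.17 ± 0.38 (SD, n = 3) did not exceed the spread (limma, adjusted p = 0.991). Avp, the vasopressin precursor, had the same split in the 2 replicates that measured it, 0.56 in replicate 3 and -0.40 in replicate 4. Hcrt, the orexin precursor that promotes waking and feeding, had -0.35, -0.02 and 0.24. Pmch, the precursor of melanin-concentrating hormone, had a probe at 6.15 times the local background. The 3 arrays that measured Pmch, all with the tumour in Cy5, read 0.25, -0.09 and 0.30, and no dye effect could be estimated for it.

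The other hypothalamic peptides had ratios on both sides of 0. Sst, or somatostatin, had 0.20 and -0.14 in replicates 3 and 4, Cartpt of the satiety peptide CART 0.04 and -0.32, and Ghrh, or growth hormone-releasing hormone, 0.18 and -0.12. Trh had -0.02 and 0.16, Gal, or galanin, 0.30 and -0.05, and Adcyap1, or PACAP, 0.05 and -0.48. Gnrh1, the releasing hormone of the gonadotropins, averaged -0.08 ± 0.10 and Tac1, the substance P precursor, -0.04 ± 0.25 over 3 replicates. Pdyn, or prodynorphin, averaged -0.05 ± 0.32 and Scg2, or secretogranin II, -0.07 ± 0.18. Chga, or chromogranin A, had 0.20 and 0.68 in replicates 3 and 4. Of the signalling genes, Insr had 0.24 and 0.23, Socs3 0.04 and -0.29, and the melanocortin receptor gene Mc4r averaged 0.10 ± 0.27.

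**Figure D4:**
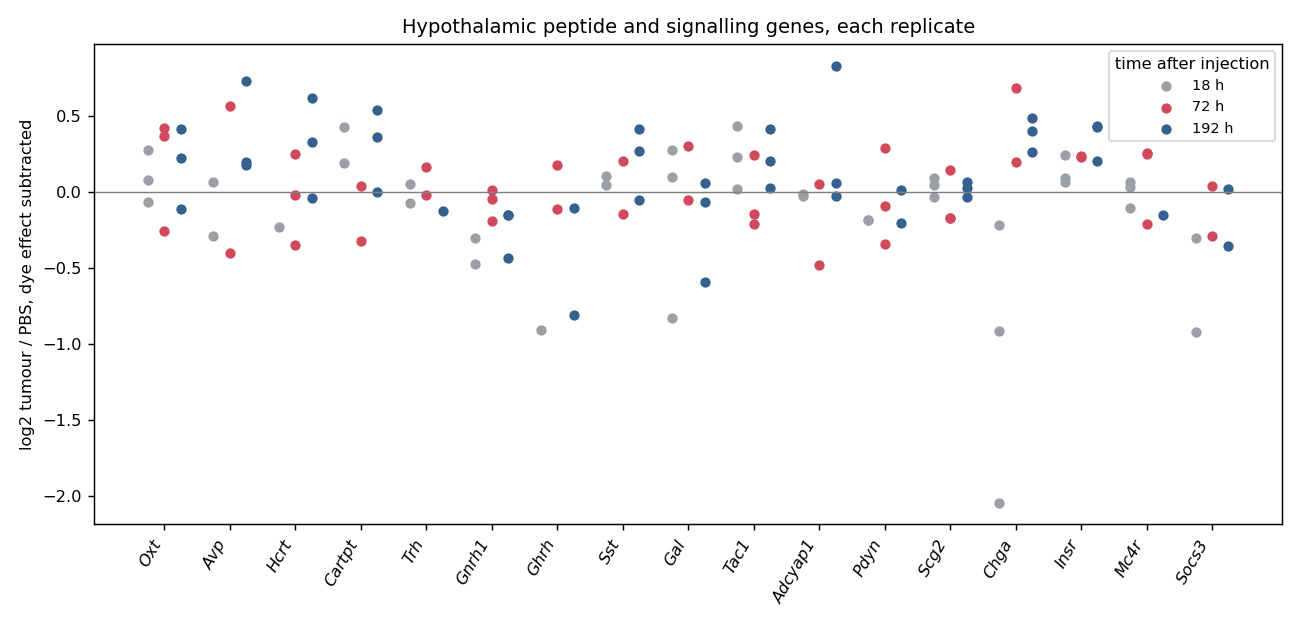
Log2 tumour over PBS ratio of the panel genes with 2 or more replicates at 72 h, each point a replicate, at 18 h (grey), 72 h (red) and 192 h (blue). At 72 h the replicates of Oxt run from -0.26 to 0.42 and those of Hcrt from -0.35 to 0.24.

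Families were read by the number of tested members above 0 and by their median, beside 53.9% above 0 and a median of 0.02 over all tested genes. The 60 families had medians between -0.12 and 0.14, of which 29 lay above the median of all genes and 31 below. In 12 families the medians of the 3 replicates had one sign, above 0 in 10 and below in 2. After median centring in place of loess, the medians of the granins (0.12), cytokines (0.05), antigen presentation (0.04), growth factors (0.06) and keratins (0.04), each under 0 with loess, lay above 0. No member of any family passed the test in limma, so all counts below describe ratios that single genes did not carry past the threshold.

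Receptors of neuropeptide Y were among the feeding genes above 0. Of the 12 tested feeding peptides and receptors, 9 lay above 0 and 3 did so in all 3 replicates, with a median of 0.10. Npy2r, the presynaptic neuropeptide Y receptor, had 0.63, 0.08 and 0.36, and Npy1r, through which neuropeptide Y drives feeding, 0.42, 0.27 and 0.15. Both were measured on all 5 arrays, where Npy2r read 0.00 to 0.52 as measured and Npy1r -1.31 to 1.84. Nmu, the satiety peptide neuromedin U, had 0.25, 0.06 and 0.19, and Galr2, a galanin receptor, lay lowest at -0.28 ± 0.31. Of the 8 tested hormones of neurosecretory neurons and their receptors 2 lay above 0, Oxt and Ucn. Ucn, or urocortin, a ligand of the corticotropin-releasing hormone receptors, had 0.18, 0.10 and 0.09. Their median was -0.05. Among the 5 granins and processing genes 1 lay above 0, Pcsk6.

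Of the transmission genes, those of synaptic vesicles lay near the median of all genes. Of 39 genes of synaptic vesicles and exocytosis 23 lay above 0, with a median of 0.02. Syn2, or synapsin II, had 0.66, 0.03 and 0.03, with replicate 1 far above the others. Of 10 monoamine genes 7 lay above 0, among them Th, tyrosine hydroxylase of dopamine synthesis, at 0.16 ± 0.12. Drd3, a dopamine receptor, averaged -0.18 ± 0.10. Of 11 GABA and glycine genes 7 and of 10 glutamate genes 6 lay above 0. Slc32a1, the vesicular transporter of GABA, had 0.46, 0.00 and 0.18, while Dlg4, the scaffold PSD-95, had -0.19, -0.08 and -0.53. Of 9 acetylcholine genes 4 lay above 0, with a median of -0.07. Ache, acetylcholinesterase, averaged 0.43 ± 0.10 with a background-corrected signal of 0.544 times the local background. Among the 20 potassium channel genes 11 lay above 0. Kcnj3, a G protein-gated channel, had 0.22, 0.33 and 0.31, and Kcnk7 had -0.43, -0.69 and -0.24.

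Most tested proteasome subunits and ribosomal protein genes lay above 0. Of 14 tested proteasome subunits 12 lay above 0, with a median of 0.10, and the medians of replicates 1, 3 and 4 were 0.32, 0.07 and 0.05. Psmb6, a catalytic subunit of the core, had 0.61, 0.21 and 0.19, Psmb3 of the same ring 0.65, 0.08 and 0.14, and Psmd2 of the cap 0.22, 0.06 and 0.18. Replicate 1 was the highest in each. Among the 11 subunits measured on all 5 arrays 9 lay above 0, where 906 of all 1496 such genes (60.6%) did. Of 27 ribosomal protein genes 20 lay above 0 with a median of 0.08, but their medians were 0.12, 0.17 and -0.06 in replicates 1, 3 and 4, so replicate 4 went the other way. Rps15 had 0.20, 0.17 and 0.23, and Rps20 0.19, 0.16 and 0.21, while Rpl10a had 0.61, 0.43 and -0.16. These genes were bright, at a median of 3.08 times the local background.

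The related families were mixed. Of 66 ubiquitin conjugation and removal genes 39 lay above 0, and 22 of the 28 on all 5 arrays did, beside the 60.6% over all genes on 5 arrays. Fbxw5, a substrate receptor of cullin ligases, had 0.79, 0.43 and 0.13, Ube2b, a conjugating enzyme of DNA damage tolerance, 0.66, 0.32 and 0.43, and Rnf43, a ligase that removes Wnt receptors, -0.79, -0.47 and -0.26. Of 27 chaperone genes 15 lay above 0, with a median of 0.10. Dnajb5 averaged 0.45 ± 0.28 and Dnajb9, induced by stress of the endoplasmic reticulum, -0.27 ± 0.27. Of 6 transfer RNA synthetases 4 lay above 0. Qars, which charges the glutamine transfer RNA, had 0.36, 0.34 and 0.33, and Iars averaged -0.21 ± 0.16. Of 18 translation factors 7 lay above 0.

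Metabolic genes gave small ratios. Of 37 genes of the respiratory chain and ATP synthase 24 lay above 0, with a median of 0.03, and 4 lay above 0 in all 3 replicates. Ndufaf4, an assembly factor of complex I, was highest at 0.49 ± 0.86 through replicate 1 alone, which read 1.48 against 0.09 and -0.09. Of 16 glutathione and antioxidant genes 12 lay above 0, with a median of 0.14 (0.02 in the authors' deposited table). The replicate medians were 0.15, 0.14 and 0.06. Txn1, or thioredoxin, had 0.47, 0.15 and 0.34, its reductase Txnrd1 0.60, 0.13 and 0.13, and Txndc11 1.09, 0.45 and 0.22. Mt3, the metallothionein of neurons, had -0.41, -0.45 and -0.12. Star, which moves cholesterol into mitochondria for steroid synthesis, averaged -0.46 ± 0.17, and Dgat1, of triglyceride synthesis, -0.43 ± 0.34.

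Glucocorticoid-responsive and immediate early genes lay on both sides of 0, and most clock genes below it. Of 6 glucocorticoid-responsive genes 3 lay above 0. Rasd1, a Ras-like protein induced by glucocorticoids, had 0.07, 0.16 and 0.49, and Klf9, a further target, -0.54, -0.02 and 0.13. Of 9 immediate early genes 5 lay above 0. Fos, a marker of recent neuronal activity, had 1.38, 0.30 and -0.11, and its mean of 0.52 ± 0.77 rested on replicate 1. Atf3, induced by nerve injury, had -0.48, -0.41 and -0.02. Among 5 clock genes, with a median of -0.09, Clock alone lay above 0, at 0.13 ± 0.05, and Per3, of the negative limb of the clock, averaged -0.31 ± 0.15.

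Immune genes, the families that a signal from the periphery would be sought in, were spread over both sides. Of 50 cytokines, chemokines and their receptors 24 lay above 0, with a median of -0.02, and 12 rested on tumour arrays in Cy5 alone. Il15ra, a receptor chain of interleukin 15, had 0.21, 0.17 and 0.20. Of the 12 members measured on all 5 arrays 9 lay above 0, beside 60.6% over all genes on 5 arrays, with replicate medians of 0.27, 0.13 and -0.10. Of 21 genes of innate signalling 10 lay above 0. Irak3, an inhibitor of Toll-like receptor signalling, had -0.66, -0.39 and -0.27, and Ptges2, a prostaglandin E synthase, -0.45, -0.22 and -0.28. Of 15 complement and coagulation genes 8 lay above 0. Plaur, the urokinase receptor, had 0.31, 0.79 and 0.49 with a background-corrected signal of 0.568 times the local background.

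Antigen presentation and interferon-response genes were among the lowest families. Of the 11 tested 4 lay above 0, none in all 3 replicates, and the median was -0.12, with replicate medians of -0.24, -0.15 and -0.03. None of the 11 was measured on all 5 arrays, and 2 rested on tumour arrays in Cy5 alone. The median lay above 0 in the authors' value table (0.03) and after median centring. Gbp8, of the interferon-induced guanylate-binding proteins, had -0.53, -0.24 and -0.16. Isg15, a ubiquitin-like interferon target, averaged -0.05 ± 0.21 and Cd74, of class II antigen presentation, 0.05 ± 0.22. Of 25 leukocyte surface antigens 13 lay above 0. Of the microglial markers C1qb averaged -0.01 ± 0.09 and P2ry12 0.12 ± 0.24.

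Genes of the nucleus were divided. Of 44 splicing and RNA-binding genes 23 and of 35 DNA replication and repair genes 22 lay above 0. Apart from Dbf4, Polh, a polymerase that copies past damage, had -0.38, -0.56 and -0.68, and Top1, or topoisomerase I, 0.51, 0.09 and 0.24. Of 31 cell cycle genes 15 lay above 0, and Cenpp of the centromere had -0.66, -0.39 and -0.51. Of 24 histone and chromatin genes 16 lay above 0. Kdm6a, an X-linked demethylase of histone H3, had 0.42, 0.04 and 0.77. Of 20 nuclear receptors and coregulators 11 lay above 0. Ncoa6, a coactivator, had 0.50, 0.35 and 0.49. Of 37 homeobox genes 19 lay above 0, and Hesx1, which patterns the pituitary and forebrain, averaged -0.55 ± 0.10. Of 48 zinc finger genes 17 lay above 0, with a median of -0.05.

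Of the signalling families, MAP kinase and Ras-like genes lay mostly above 0. Of 51 MAP kinase and Ras-like genes 34 lay above 0, with a median of 0.08. Mapkapk2, the kinase below p38, had 0.33, 0.19 and 0.49, and Grb2, the adaptor between receptor kinases and Ras, -0.95, -0.42 and -0.13. Of 70 Rab and Arf trafficking genes 44 lay above 0. Ap2a2, of the clathrin adaptor AP2, had 0.78, 0.07 and 0.60. Of 18 G protein genes 8, of 32 growth factor and receptor kinase genes 13 and of 20 Wnt, Notch and hedgehog genes 10 lay above 0. Vegfb averaged -0.29 ± 0.31. Of 26 axon guidance genes 15 lay above 0, and Dpysl5, a phosphoprotein of growth cones, had 0.65, 0.17 and 0.35. Of 28 cadherin and junction genes 10 lay above 0. Of 33 extracellular matrix and integrin genes 14 lay above 0, 7 of them in all 3 replicates, and 7 others lay below 0 in all 3. Of 48 genes of tubulin, kinesin, dynein and cilia 25 lay above 0. In all 3 replicates 9 of the 48 lay above 0 and 12 below, and 3 and 5 had an unadjusted p under 0.05 (limma), beside 15% above and 11.9% below in all 3 replicates over all tested genes. Ift80, of ciliary transport, averaged 0.50 ± 0.14, while Kif4, a mitotic kinesin, averaged -0.50 ± 0.26. Cryab, the small heat shock protein alpha B-crystallin of glia, had -0.21, -0.62 and -0.85.

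Families with little known part in the hypothalamus give a measure of how far such counts wander. Of 26 testis and sperm genes 13, of 17 olfactory, vomeronasal and taste receptor genes 8 and of 12 keratin genes 5 lay above 0. The keratin median was -0.12, as far from 0 as that of antigen presentation. Krt13 had -0.62, -0.42 and -0.44.

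**Figure D5:**
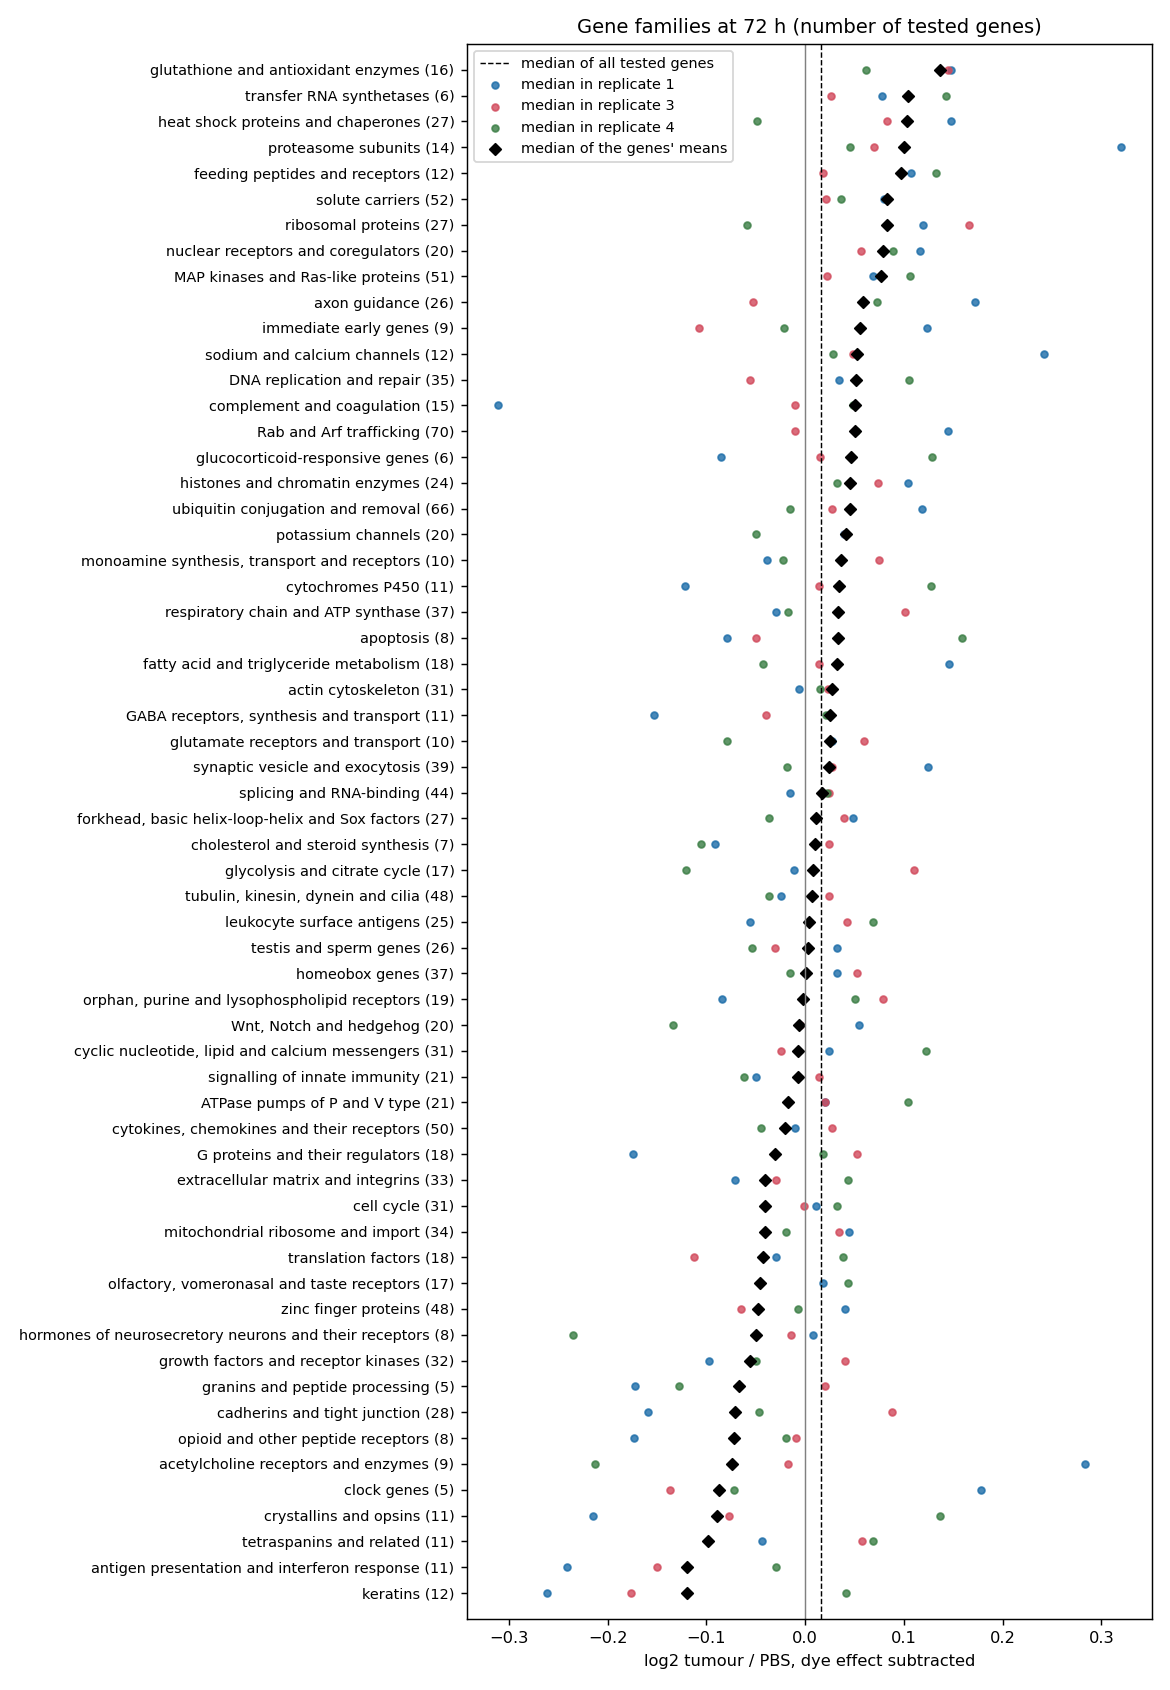
Median log2 tumour over PBS ratio at 72 h of each of the 60 families (black), with the median in each replicate (coloured); the number of tested genes is in parentheses and the dashed line is the median of all tested genes, 0.02. The family medians run from -0.12 for keratins to 0.14 for glutathione and antioxidant enzymes, and the replicates of most families lie on both sides of 0.

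Markers of other cell types were few, and gave no even shift. Of the 7 tested neuronal markers 5 lay above 0, from Eno2 at -0.24 ± 0.17 to Uchl1 at 0.21 ± 0.34, with a median of 0.00. Of the 5 tested oligodendrocyte markers 2 lay above 0. Cldn11 of myelin had -1.27, 0.51 and -0.02, so replicate 1 stood far below the others, and Olig1 averaged -0.37 ± 0.31. Of the astrocyte markers Slc1a3, a glutamate transporter, had 0.68, 0.05 and 0.23 and S100b 0.45, -0.07 and -0.35. The pituitary hormone gene Tshb averaged -0.01 ± 0.12 and Dcn of the meninges 0.12 ± 0.06. None of the endothelial or ependymal markers had 3 replicates. Of the regional markers, Nkx2-1 of the ventral hypothalamus averaged 0.12 ± 0.07 and Hmx3 -0.35 ± 0.39. Calb2, also strong in neighbouring regions, averaged 0.29 ± 0.19. Their part in the ratios above was not tested.

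The ratios at 72 h were set against those of the other times, to ask whether any was particular to this time. Against 18 h, 998 genes could be compared and limma called 0 (0%), with a smallest adjusted p of 0.842 and 52 genes at an unadjusted p under 0.05, of which 48 were higher at 72 h. Tmeff2, a transmembrane protein with follistatin domains, averaged 0.20 ± 0.14 at 72 h and -0.74 ± 0.45 at 18 h. Top3a, a DNA topoisomerase, averaged -0.42 ± 0.17 at 72 h and 0.52 ± 0.18 at 18 h. Dbf4 averaged 1.50 at 72 h and -0.02 ± 0.09 at 18 h, a difference of 1.52 (limma, adjusted p = 0.842). Aldh6a1, of valine breakdown, and Snx5, a sorting nexin, averaged 0.40 and 0.23 at 72 h and -0.57 and -0.52 at 18 h. Over all 998 compared genes the median difference was 0.12, and 68.8% were higher at 72 h.

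Against 192 h, 1892 genes could be compared and limma called 0 (0%), with a smallest adjusted p of 0.999 and 43 genes at an unadjusted p under 0.05, of which 39 were higher at 72 h. Over all 1892 compared genes the median difference was 0.08, and 64.2% were higher at 72 h. Brsk2, a kinase of neuronal polarity, averaged 0.84 ± 0.66 at 72 h and -0.93 ± 0.71 at 192 h. Aqp2, the vasopressin-regulated water channel of the kidney, averaged 0.63 ± 0.16 and -0.41 ± 0.64, and Ccdc3 0.63 ± 0.58 and -0.37 ± 0.12. Tenm3, a teneurin, averaged 0.47 ± 0.12 at 72 h and -0.29 ± 0.22 at 192 h, and Tmem121b 0.36 ± 0.52 and -0.59 ± 0.42. Without the dye correction Brsk2 and Aqp2 lay at -0.80 and -0.08 at 72 h, so the sign of both came with the subtraction. For Dbf4 the mean at 192 h was 0.43 ± 0.96 and the difference 1.07 (limma, adjusted p = 0.999).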

How the data were processed

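Hypothalamic RNA of tumour and PBS mice was compared on 2-colour arrays, each scanned at 3 settings. The deposited scanner files hold spot intensity and local background intensity per channel, spot marks and a saturation factor, per the file headers. The saturation factor is a fraction that the scanner software wrote before the files were deposited, per the file headers. The authors' deposited value tables hold a score per spot, a log ratio centred near 0 whose log base is not given in the sources used here, and served as an alternative. Spots that were marked, saturated or at or below 0 in a channel were left out. Log2 ratios were normalised within each scan by loess (span 0.3, 4 iterations), and the scans were averaged. A dye effect was estimated for 7928 probes (SD 0.301) as the mean log2 ratio of Cy5 to Cy3 in the 7 replicates labelled both ways, and was subtracted. The error of this effect was not part of the fit. Ratios were turned to tumour over PBS, averaged per replicate, and the probe with the highest signal stood for a gene. limma 3.58.1 in R 4.3.3, with the data.table package (1.17.8), fitted 1 mean per time to 9 replicates on 16 arrays of 18, 72 and 192 h, with Benjamini-Hochberg adjustment over the genes with all 3 replicates at 72 h. The fit was also run on simulated ratios with independent noise and no dye effect, so that run did not cover errors of the dye subtraction.

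Named genes were first those of smallest p with one sign in all replicates and in 4 of the alternative settings (12 a direction, 3 a family). These 4 were normexp background correction, median centring, no dye correction and the authors' table. The others were the hypothalamic panel, the genes of one sign on all 5 arrays nearest-to-0 array first (8 a direction) and 5 genes per contrast between times. The members, families and lists were chosen with earlier results of these data known, and symbols assigned to the wrong family were removed after values were seen. Genes outside the rule, chosen after their values were seen, include Pcsk6, Galr2, Rps15, Rps20, Rpl10a, Ndufaf4, Txn1, Klf9, Fos, Isg15, Cd74, Apba2, Parp6, Micos13, Mpv17l, Prokr1, Cfap298 and Mov10l1. Families were described by counts and medians, with no set test. Alternatives were another background correction, median centring, the authors' table, no dye correction, dye-balanced spots, the scan with most usable spots, dim spots left out, saturated spots kept, the mean of a gene's probes, each replicate left out, 72 h alone, and print or replicate as a block. The 5 arrays of 72 h on the print with poorly matching names were not used here. The number of arrays limits the precision.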

Additional observations from a re-analysis of the deposited data

Results flagged for a closer look

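For the 24 leading genes at 72 h there were 16 cases of a gene with exactly 2 replicates at another time. In 8 of them both replicates lay on the opposite side of 0 from the 3 replicates at 72 h, in 3 both lay on the same side, and in 5 they were split. Luc7l was one of the 3 on the same side, at 0.71 at 72 h and 0.78 at 192 h. Its 1 replicate at 18 h lay at -0.24. The 24 genes were chosen by their values at 72 h, and the same share over all genes was not counted. The difference was not tested for any of the 8, since the other time had fewer than 3 replicates. The same dye effect of a probe was subtracted at every time. For Luc7l, Dnhd1, Ccdc3, Evx1 and Cand2 it came from 1 replicate labelled both ways. Cd37 averaged 0.93 at 72 h and -0.86 at 192 h. Dnhd1 averaged 0.96 at 72 h and -0.51 at 18 h, and Eps15l1 0.61 at 72 h and -0.24 at 18 h. Fxyd1, a gene above 0 on all 5 arrays at 72 h, averaged 0.51 at 72 h and -0.55 at 18 h. Ccdc3 averaged 0.63 at 72 h and -0.28 at 18 h, and Rpl7l1 0.53 at 72 h and -0.62 at 18 h. Evx1 averaged -0.57 at 72 h and 0.32 at 192 h, and Cand2 -0.72 at 72 h and 0.49 at 192 h.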

How the results depend on the processing

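The number of genes past the adjusted threshold at 72 h was 0 in the reported fit, 2 of 2366 with dye-balanced spots of replicates 3 and 4 (Iftap at 0.90 and Capn15 at -0.80), and between 0 and 1 when each replicate was left out, the 1 being Tm4sf1 at 2.62 without replicate 3 (limma, adjusted p = 0.0394), whose 2 remaining replicates read 0.27 and -0.10 as measured and whose dye effect came from replicate 3. It was 0 in the other settings, with a smallest adjusted p of 0.0571 when saturated spots were kept and 0.0942 when 72 h was fitted alone. With the replicate block it was 0, with a smallest adjusted p of 0.462. Same-numbered replicates of different times, taken as deviations from the mean of their time, correlated between -0.081 and 0.176. Replicate means within 72 h correlated only between 0.029 and 0.176, so these values cannot settle whether the numbers pair the samples. Both contrasts between times called 0 genes in every setting run for them. The count of genes with one sign in all 3 replicates at 72 h was 967, against 435 with the scan of most usable spots alone and 538 without the dimmest 25% of spots, where fewer genes were tested. Of these 967 genes, 617 kept the sign of their mean under normexp, median centring, no dye correction and the authors' table. The leading and family genes were chosen to keep it in these 4 settings, so they could not turn there. Among named genes the mean log2 ratio turned its sign without dye correction for Aqp2 (-0.077), Brsk2 (-0.80), Galr2 (0.19), Isg15 (0.15), Mov10l1 (0.10), P2ry12 (-0.096), Prokr1 (0.064) and Scg2 (0.0051). In the authors' table it did so for C1qb (0.022), Cnnm2 (0.0078), Gnrh1 (0.064), Isg15 (0.066), Klhdc8b (0.013), Ppp1r12c (-0.075), Slc1a3 (-0.0081) and Txn1 (-0.020), and with normexp for Hcrt (0.038) and Tshb (0.053). Median centring turned Cd74 (-0.070), Hcrt (0.027), Isg15 (0.063), Pdyn (0.12), Rps15 (-0.056), Rps20 (-0.26), Tac1 (0.21), Top3a (0.011) and Tshb (0.12), and dye-balanced spots Cldn11 (0.25), Klf9 (0.057), S100b (-0.21) and Ndufaf4 (-0.00098). With each replicate left out, Hcrt ran from -0.19 to 0.11, Tac1 from -0.18 to 0.047, Pdyn from -0.22 to 0.096, C1qb from -0.046 to 0.041, Cd3e from -0.094 to 0.046, Cd74 from -0.072 to 0.15, Cldn11 from -0.64 to 0.25, Isg15 from -0.16 to 0.052, Klf9 from -0.28 to 0.057, S100b from -0.21 to 0.19, Ndufaf4 from -0.00098 to 0.79 and Tshb from -0.055 to 0.058. Without the dimmest 25% Myh8 was at 0.30, Nmu at -0.019, P2rx1 at -0.22 and Ube2b at -0.030, P2rx1 was at -0.10 with the best scan alone, and Scg2 at 0.081 with saturated spots kept. The causes were not tested. Of the family medians, 146 values under other settings moved by more than the spread between replicates and 827 did not. Dim probes, 3 replicates and the exchange of dyes limit what these arrays can resolve.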
